A study of Caenorhabditis elegans with 2 samples.

Results

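The genes described here are 10 genes of glycolysis, the pathway that splits glucose into pyruvate: gpi-1, aldo-1, aldo-2, gpd-1, gpd-2, gpd-3, gpd-4, enol-1, pyk-1 and pyk-2. They were taken by name from the Ensembl annotation of WBcel235, the assembly also called ce11, and are 10 of its 19973 protein-coding genes. The occupancy of these genes by RNA polymerase II, through its largest subunit AMA-1, was measured by chromatin immunoprecipitation and sequencing (ChIP-seq). The material was whole L3 larvae of Caenorhabditis elegans N2, the wild-type reference strain, of both sexes, with age recorded as unknown. There was 1 group of 2 biological replicates, no treatment and no second genotype, so the design has no contrast between conditions and the comparisons below are among genes. L3 is a larval stage with largely formed somatic tissues and a growing germ line, and signal in a few cells at high occupancy cannot be told apart here from signal in many cells at low occupancy.

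In the order of the pathway, GPI-1, glucose-phosphate isomerase, turns glucose phosphate into fructose phosphate, and the aldolases ALDO-1 and ALDO-2 split fructose bisphosphate into a pair of triose phosphates. The GPD proteins are glyceraldehyde-phosphate dehydrogenases (GAPDH), which carry out the oxidative step. ENOL-1, enolase, makes phosphoenolpyruvate, and the pyruvate kinases PYK-1 and PYK-2 convert it to pyruvate with formation of ATP. The gpd-2 and gpd-3 genes lie downstream of mai-1, a homologue of mitochondrial ATPase inhibitors, in one of the first operons described in this species. Such genes share a primary transcript, which is cut at the 3′ end of one gene and trans-spliced to a spliced leader at the start of the next. RNA polymerase II runs past the 3′ end of a gene before it terminates, so ChIP signal can lie on both sides of that end.

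Each peak list gives, per region, a summit, which is the base the list marks within the region, and a signal value. The median region width was 320 bp in the optimal and pooled lists, 300 bp in replicate 1 and 380 bp in replicate 2. The signal is the authors' own value for the region, its scale is not given in the sources used here, and it is compared below only within a list. The optimal list held 3052 regions that passed the authors' irreproducible discovery rate (IDR) threshold, a filter on repeatability. Their signals ran from 57.9 to 1168, with a median of 79.2. A region that passed need not lie near a region in the list of each replicate. The permissive pooled list and the list of each replicate held 30000 regions each, and ranks count from the strongest of these. The gene window ran from 1000 bp upstream of the annotated 5′ end to 500 bp past the annotated 3′ end. Distances are in gene direction, and negative distances lie before the end named. Among marker genes of larval tissues and of adult yolk, an optimal summit lay in the window of 4 of 4 epidermis genes, 1 of 4 intestine genes, 1 of 4 neuron genes, 0 of 4 body wall muscle genes, 0 of 4 germ line genes and 0 of 6 adult yolk genes. The share over all protein-coding genes was 11.9%. With so few genes per list, counts of 0 or 1 cannot be told apart from that share.

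The 4 GAPDH genes form 2 pairs of near copies. The coding sequences of gpd-2 and gpd-3 were 97.4% identical, with 27 mismatches over 1023 bases, and those of gpd-1 and gpd-4 were 99.0% identical, with 10 mismatches. The coding sequences of gpd-1 and gpd-2 were 79.2% identical. Because an optimal summit lay at nearly the same coding position inside gpd-2 and gpd-3, the 91 bases centred on the gpd-2 summit are shown for all 4 genes, read from the WBcel235 genome and written 5′ to 3′ in gene direction. Capitals mark bases that differ from gpd-2.
gpd-2 chrX:3114453-3114543 (minus strand): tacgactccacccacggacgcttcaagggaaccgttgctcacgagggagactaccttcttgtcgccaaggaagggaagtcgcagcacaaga
gpd-3 chrX:3113087-3113177 (minus strand): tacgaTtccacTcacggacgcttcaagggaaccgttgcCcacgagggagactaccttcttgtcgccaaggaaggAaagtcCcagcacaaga
gpd-1 chrII:10394281-10394371 (plus strand): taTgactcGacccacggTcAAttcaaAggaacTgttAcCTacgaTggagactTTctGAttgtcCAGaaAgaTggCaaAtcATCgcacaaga
gpd-4 chrII:10171424-10171514 (plus strand): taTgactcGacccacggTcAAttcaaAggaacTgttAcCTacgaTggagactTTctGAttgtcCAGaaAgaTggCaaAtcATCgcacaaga
The gpd-2 summit lay at coding base 190 and the gpd-3 summit at coding base 176, which is 14 bases apart. Over these 91 bases, gpd-3 differed from gpd-2 at 5 bases and gpd-1 and gpd-4 each differed at 25. The gpd-1 and gpd-4 stretches were identical to each other.

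An optimal summit lay in the window of 7 of the 10 glycolysis genes, against 11.9% of protein-coding genes (2375 of 19973, exact Clopper-Pearson 95% interval 11.4 to 12.3%, counting error only). These were gpd-2, gpd-3, aldo-1, aldo-2, enol-1, pyk-1 and gpi-1, and the genes without an optimal summit were gpd-1, gpd-4 and pyk-2. All 10 had at least 1 region in the pooled list, as did 9616 of the 19973 protein-coding genes. The strongest pooled signal in the window had a median of 127.0 over the 10 genes, and 35.5 over the 9616 genes. The 7 genes held 15 distinct optimal summits, of which 3 counted for both gpd-2 and gpd-3. Of the 15, 6 lay in coding exons, 5 in introns and 4 between protein-coding genes. A replicate 1 region lay within 200 bp of 14 of them, and a replicate 2 region of 14 of them.

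**Figure D1:**
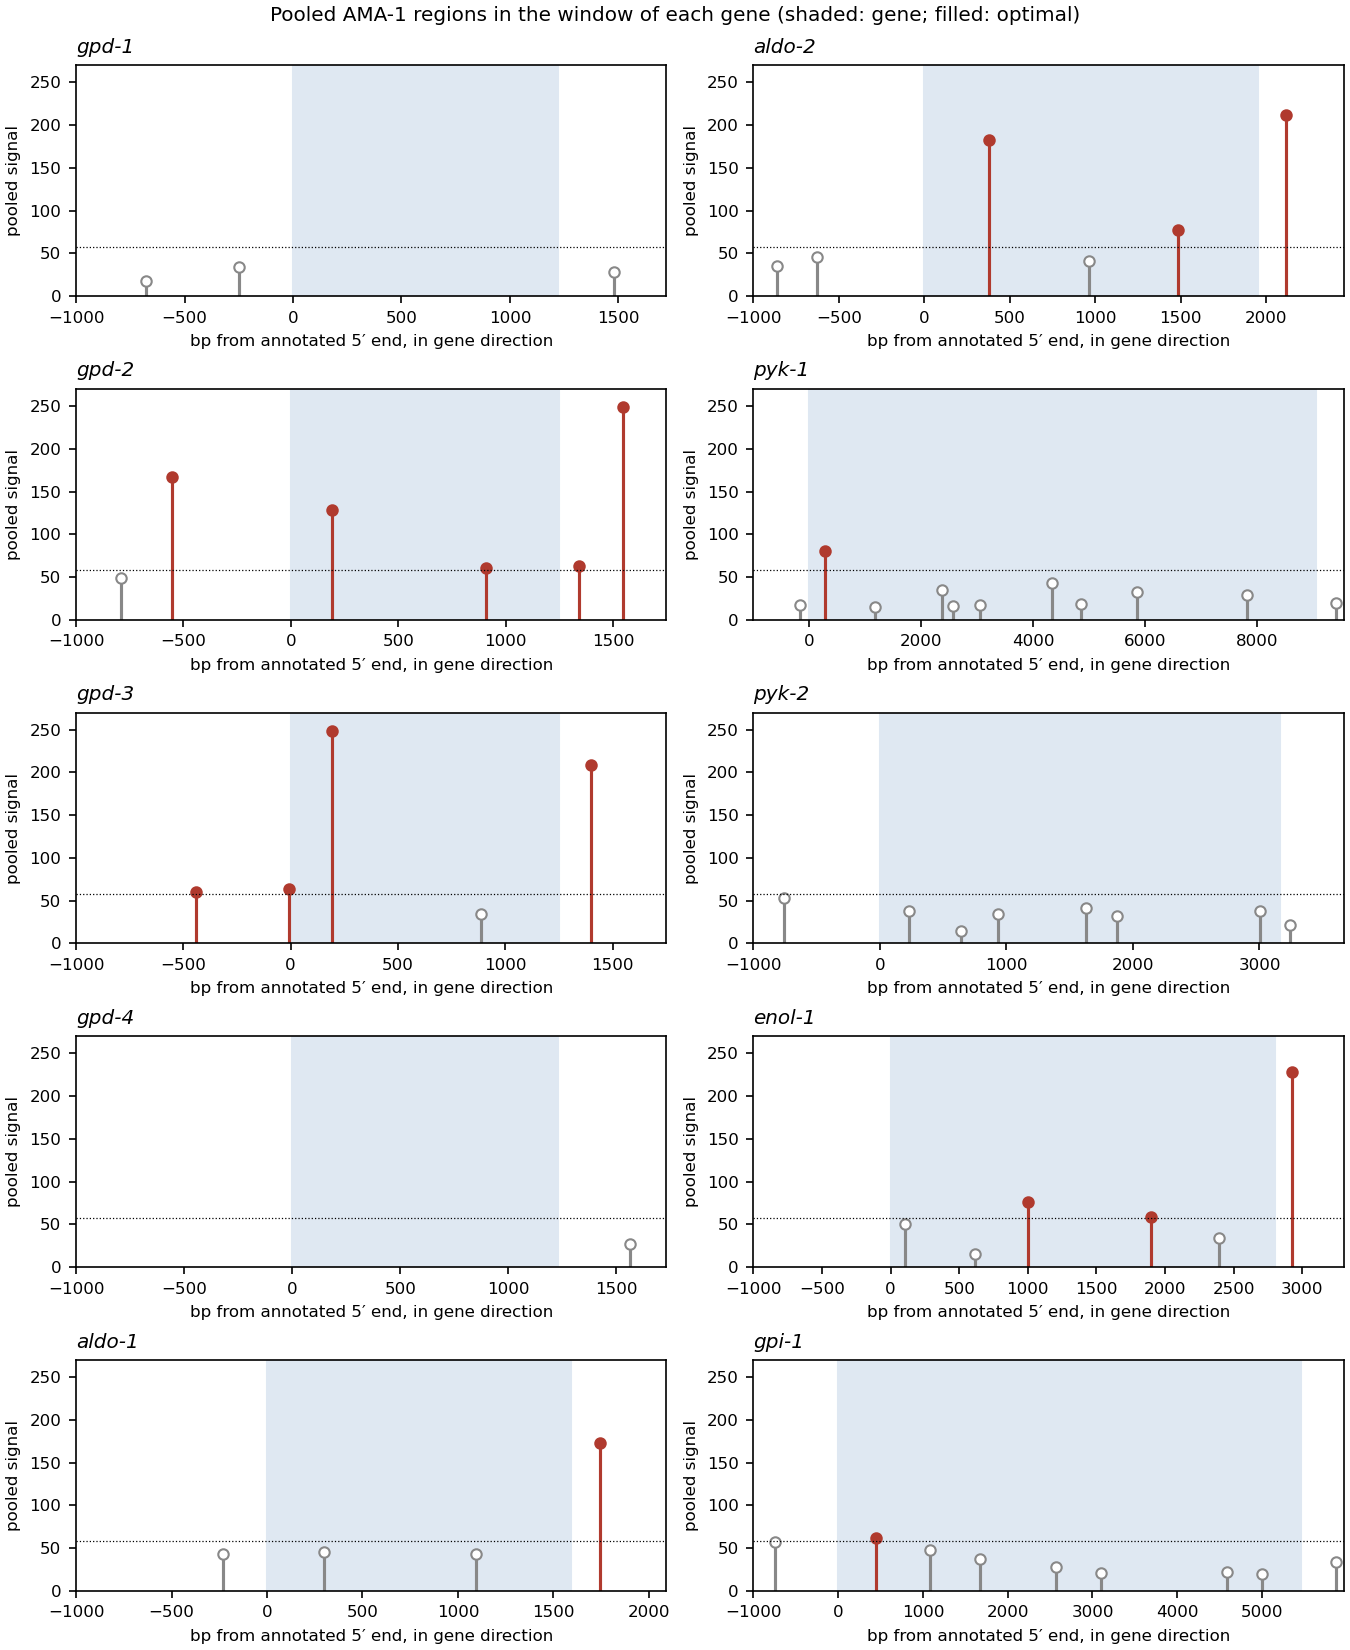
Pooled regions in the window of each of the 10 genes, with distance from the annotated 5′ end in bp on the x axis and pooled signal on the y axis. The shading is the annotated gene, filled points are optimal summits, open points are other pooled summits, and the dotted line is the lowest optimal signal of 57.9. The tallest points of gpd-3, aldo-1, aldo-2 and enol-1 include 1 just past the shaded gene, and gpd-1, gpd-4 and pyk-2 have open points only.

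The 2 operon genes carried the strongest region of the 10. The region with its summit at X:3113146, in the coding exon 195 bp inside gpd-3, had a pooled signal of 248.9 at rank 98. In replicate 1 its signal was 139 at rank 199, and in replicate 2 it was 103 at rank 65. Only 0.566% of protein-coding genes had a pooled region this strong in their window. The corresponding summit at X:3114498, 191 bp inside gpd-2 (WBGene00001684, X:3113443-3114689, minus strand), had a pooled signal of 128.2 at rank 492, with 99.8 at rank 444 in replicate 1 and 46.9 at rank 442 in replicate 2. This position is also 170 bp past the annotated 3′ end of mai-1, and it is nearer to that end than to the 5′ end of gpd-2. Within 500 bp of the 5′ end, the strongest region of gpd-2 therefore had 0.515 times the signal of that of gpd-3 (WBGene00001685, X:3112091-3113341, minus strand) in the pooled list, 0.718 times in replicate 1 and 0.457 times in replicate 2. The downstream copy was the higher one in each of these lists.

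A further optimal summit lay at X:3115242, 553 bp upstream of gpd-2 and inside an intron of mai-1. Its pooled signal was 166.7 at rank 268. It had a signal of 170 at rank 117 in replicate 1, whereas the matching region of replicate 2 had a signal of 30.6 at rank 1206. In replicate 1 this was the strongest region of the gpd-2 window, but in the pooled list and in replicate 2 the strongest region of that window was the summit inside gpd-3. Past gpd-3, a summit at X:3111943, 148 bp beyond its annotated 3′ end, had a pooled signal of 209.1 at rank 142. The values there were 150 at rank 162 in replicate 1 and 58.2 at rank 250 in replicate 2.

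The other 2 optimal summits of the operon were each found near the same place in only 1 replicate. The summit at X:3113347 lay 6 bp before the annotated 5′ end of gpd-3, in the stretch between both genes, and had a pooled signal of 63.2 at rank 2523. Replicate 2 held a region there with a signal of 81.5 at rank 110, and replicate 1 had none within 200 bp. The summit at X:3113782, in the coding exon 339 bp before the 3′ end of gpd-2, had a pooled signal of 60.5 at rank 2773. Replicate 1 held a region there with a signal of 50.6 at rank 2084, and replicate 2 had none within 200 bp. Inside gpd-3, a weaker pooled region 363 bp before the 3′ end had a signal of 34.1 and was not in the optimal list.

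**Figure D2:**
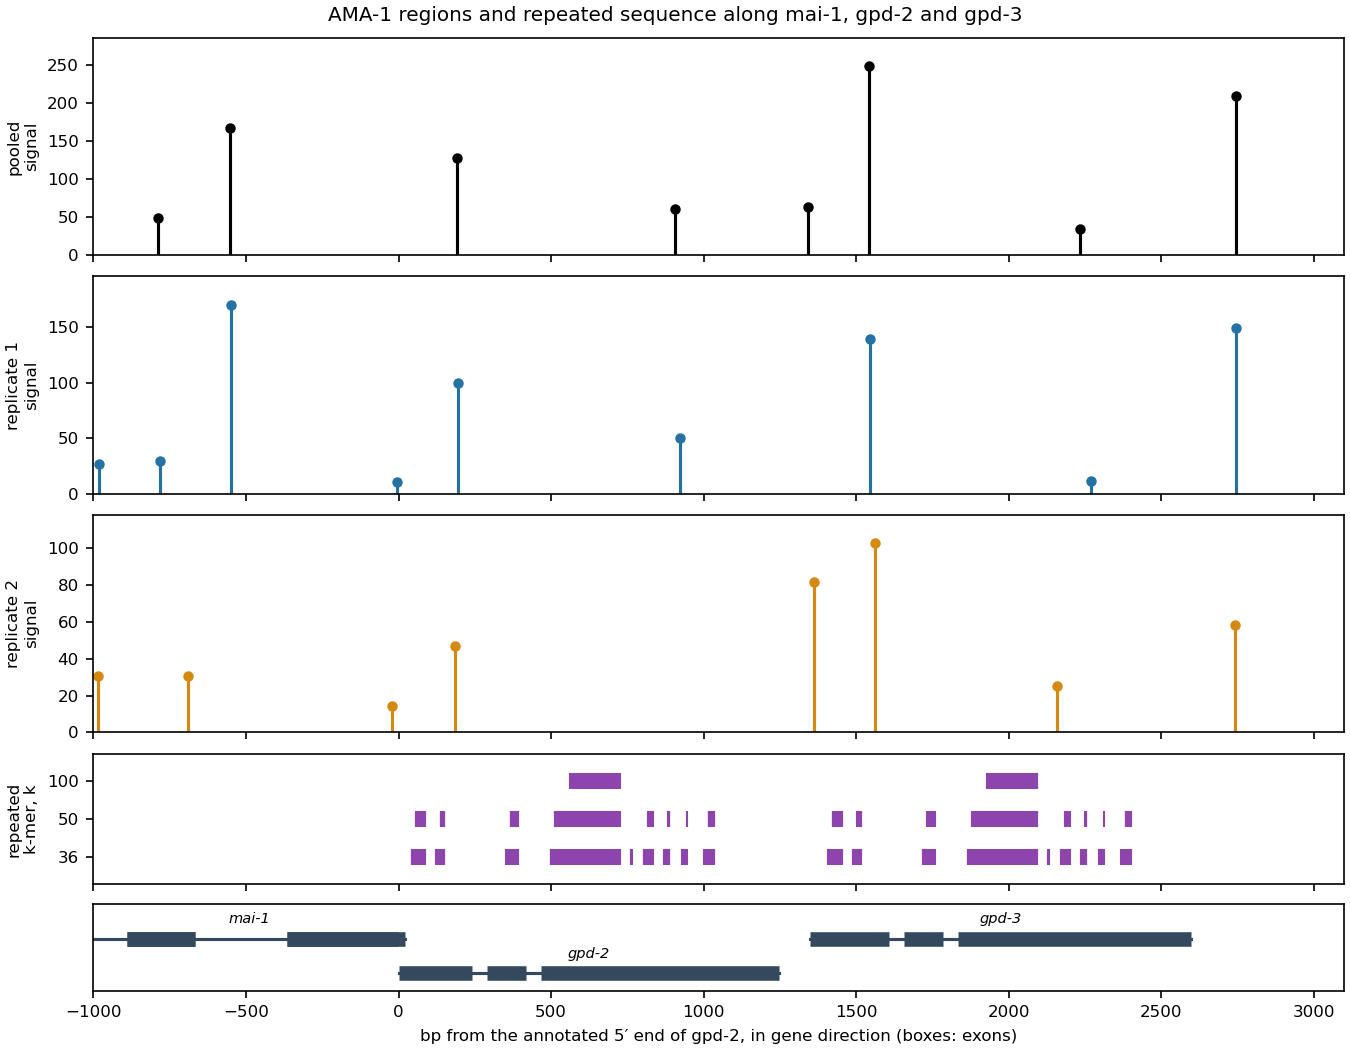
AMA-1 regions along mai-1, gpd-2 and gpd-3, with distance from the annotated 5′ end of gpd-2 in bp on the x axis and the signal of the pooled, replicate 1 and replicate 2 lists on separate y axes. The lower panels mark start positions whose 36, 50 or 100 bases occur again in the genome, and the exons. The tallest pooled point lies just inside gpd-3, and of the replicates only replicate 2 has a point at the start of gpd-3 next to it.

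The stretch between the annotated ends of gpd-2 and gpd-3 is 101 bases long and is shown because the gpd-3 start summit at X:3113347 lies at its downstream edge. In the first operons studied, a U-rich element between genes was found to promote trans-splicing to the spliced leader SL2, and its DNA form was searched on both strands as TACCTT, as its variants TACTTT and TATCTT, and as the more T-rich TATTTT. Capitals mark TACCTT.
gpd-2 to gpd-3 chrX:3113342-3113442 (minus strand): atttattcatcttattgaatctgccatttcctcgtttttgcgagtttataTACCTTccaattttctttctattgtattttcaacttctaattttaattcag
TACCTT began at base 51 past the gpd-2 3′ end and TATTTT at base 75, both in gene direction, and neither overlapped the other. Of the first 101 bases past the 3′ end of each protein-coding gene, 29.9% held at least 1 of the 4 hexamers in gene direction, 49.0% held one on either strand and 1.71% held TACCTT in gene direction. Thymine made up 51.5% of the printed stretch.

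The gpd-1 gene (WBGene00001683, II:10394129-10395349, plus strand) and the gpd-4 gene (WBGene00001686, II:10171268-10172498, plus strand) had no optimal summit, and no list held a summit inside either gene. The strongest pooled region of the gpd-1 window lay 250 bp upstream, with a signal of 34.2 at rank 8719. The nearest region in replicate 1 had a signal of 32.9 at rank 5148 and in replicate 2 of 9.53 at rank 14038. The other pooled regions of that window lay 676 bp upstream, in an untranslated exon of T09F3.2 and nearer to its 3′ end, with a signal of 17.3, and 261 bp past the 3′ end with a signal of 28.3, and the latter summit was nearer to the 5′ end of T09F3.4. For gpd-4 the pooled list held only 1 region, 334 bp past the 3′ end, with a signal of 27.4 at rank 12734. Replicate 1 had a signal of 18.8 there and replicate 2 had no region in the gpd-4 window. The pooled summit lay 91 bp before the 5′ end of wbp-11 and was nearer to that end than to gpd-4.

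The strongest region in the windows of gpd-2 and gpd-3 was 7.28 times as strong as that of gpd-1 in the pooled list. In replicate 1 it was 5.18 times as strong for gpd-2 and 4.55 times for gpd-3, and in replicate 2 it was 6.68 times for both, which share that region. Against gpd-4, the pooled value was 9.10 times as strong for both genes, and in replicate 1 it was 9.04 times for gpd-2 and 7.96 times for gpd-3. The windows of the operon pair were thus above that of gpd-1 in each list, and above that of gpd-4 wherever gpd-4 had a region. None of the gpd-2 values used here lies in gpd-2. They are the region inside gpd-3 in the pooled list and replicate 2, and the mai-1 intron region in replicate 1. The gpd-3 value in replicate 1 is the region 148 bp past the gpd-3 3′ end. The gpd-1 value in replicate 2 is a region with a signal of 15.4, 253 bp past the gpd-1 3′ end and nearer to the 5′ end of T09F3.4. These window ratios therefore compare regions at unlike positions. Within 500 bp of the 5′ end, the strongest gpd-2 region was 3.75 times that of gpd-1 in the pooled list. The value was 3.04 times in replicate 1 and 4.92 times in replicate 2. In earlier work on this species, gpd-1 and gpd-4 were described as the embryonic pair of GAPDH genes and gpd-2 and gpd-3 as the pair of later stages.

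Reads from near-identical sequence cannot be placed with certainty, and the read length is not given in the sources used here, so repeated sequence was measured at 3 lengths. At 36 bases, 63.7% of the start positions in gpd-1, 63.2% in gpd-4, 35.0% in gpd-2 and 34.9% in gpd-3 occurred again in the genome. At 100 bases these shares were 35.7% in gpd-1, 35.4% in gpd-4 and 13.1% in gpd-2. The peaks at 191 bp inside gpd-2 and 195 bp inside gpd-3 each had 22.5% repeated positions at 36 bases and 0% at 100 bases. At 36 bases the share was 3.29% in pyk-1 and 3.92% in gpi-1, and it was 0% in aldo-1, aldo-2, pyk-2 and enol-1. The genes with the highest shares, gpd-1 and gpd-4, are the ones with no summit inside the gene in any list, and the part of repeated sequence in this was not tested. The upstream 200 bp of gpd-1 and gpd-4 were 75.8% identical in the alignment and those of gpd-2 and gpd-3 53.6%, with gaps counted as differences. Over aligned bases only, the values were 91.7% and 65.6%. Upstream alignments across the pairs gave 49.1% to 51.8% with gaps counted, close to the value of gpd-2 and gpd-3.

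The 2 aldolase genes differed at their 5′ ends more than at their 3′ ends. Their coding sequences were 67.0% identical. Past the annotated 3′ end, the optimal summit of aldo-1 (WBGene00011474, III:13563346-13564937, minus strand) lay at III:13563191, 155 bp beyond it, with a pooled signal of 173.0 at rank 246. The signals were 129 at rank 240 in replicate 1 and 44.3 at rank 510 in replicate 2. That of aldo-2 (WBGene00017166, III:5874673-5876625, minus strand) lay at III:5874512, 161 bp beyond the end, with a pooled signal of 212.3 at rank 138. Here the signals were 178 at rank 100 in replicate 1 and 55.7 at rank 283 in replicate 2. The aldo-2 value at this end was 1.23 times the aldo-1 value in the pooled list, 1.39 times in replicate 1 and 1.26 times in replicate 2.

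At the 5′ end the difference between the aldolases was wider. The aldo-2 gene had an optimal summit in an intron at III:5876245, 380 bp inside the gene and 225 bp from its nearest annotated transcript start, with a pooled signal of 182.2 at rank 206, 129 in replicate 1 and 57.2 at rank 270 in replicate 2. The aldo-1 gene had no optimal summit there, and its strongest pooled region within 500 bp of the 5′ end lay 300 bp inside the gene with a signal of 45.2 at rank 5120. The aldo-2 value was 4.03 times the aldo-1 value in the pooled list, 3.05 times in replicate 1 and 3.23 times in replicate 2. The remaining optimal summit of aldo-2, at III:5875139 in a coding exon 466 bp before the 3′ end and nearer to the 3′ end of F01F1.3, had a pooled signal of 77.8 at rank 1582, with 65.9 in replicate 1 and 25.2 in replicate 2.

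Neighbouring genes lie close to both aldolase 3′ summits. The aldo-1 summit lay 109 bp before the 5′ end of T05D4.2, which is nearer than the 3′ end of aldo-1. The aldo-2 summit lay in a coding exon of F01F1.3, which ends in the opposite direction, and its region was 90 bp wide. The part of these signals that belongs to the neighbours was not tested.

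The enolase gene enol-1 (WBGene00011884, II:8930997-8933799, plus strand) had its strongest region past the 3′ end. This optimal summit, at II:8933924 and 125 bp beyond the end, had a pooled signal of 228.1, below only the region inside gpd-3 among the 10 genes. The values there were 153 at rank 157 in replicate 1 and 75.4 at rank 133 in replicate 2. Inside the gene, an intronic summit at II:8931999, 1002 bp from the 5′ end and 107 bp before another annotated transcript start, had a pooled signal of 76.3 at rank 1654. A coding exon summit at II:8932897 had a signal of 59.0 at rank 2937, close to the lowest optimal signal. Within 500 bp of the 5′ end, the strongest pooled region lay 106 bp inside the gene with a signal of 50.2 at rank 4149 and was not in the optimal list. The 3′ value of enol-1 was 4.54 times its 5′ value in the pooled list, 4.20 times in replicate 1 and 3.25 times in replicate 2.

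An optimal summit lay between 100 and 200 bp past the annotated 3′ end of 4 of the 10 genes, against 1.72% of protein-coding genes (344 of 19973). Over all protein-coding genes, 344 of the 1327 pairs of a gene and an optimal summit within 500 bp of its 3′ end fell in that stretch. The 4 genes are gpd-3, aldo-1, aldo-2 and enol-1, whose summits lay 148, 155, 161 and 125 bp past the end. The stretch from 100 to 200 bp was not among the windows planned beforehand, and it spans all 4 distances. Its count therefore describes where these summits lay and is not an independent result. The bases past these 4 ends are shown in gene direction, up to 200 bp beyond the end and, for aldo-2, only the part inside the coding exon of F01F1.3. Capitals mark the 21 bases centred on the summit.
gpd-3 chrX:3111891-3112090 (minus strand): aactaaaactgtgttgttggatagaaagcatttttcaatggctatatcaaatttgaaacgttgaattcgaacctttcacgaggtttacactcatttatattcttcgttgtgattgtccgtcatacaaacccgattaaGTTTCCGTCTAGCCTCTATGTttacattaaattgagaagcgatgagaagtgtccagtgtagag
aldo-1 chrIII:13563146-13563345 (minus strand): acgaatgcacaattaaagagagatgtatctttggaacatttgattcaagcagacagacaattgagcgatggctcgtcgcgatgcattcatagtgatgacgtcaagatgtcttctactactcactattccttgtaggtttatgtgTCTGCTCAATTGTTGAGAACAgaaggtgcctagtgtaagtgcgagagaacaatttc
aldo-2 chrIII:5874473-5874599 (minus strand): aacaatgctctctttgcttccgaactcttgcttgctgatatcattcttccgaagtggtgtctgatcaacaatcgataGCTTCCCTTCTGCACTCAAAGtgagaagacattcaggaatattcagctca
enol-1 chrII:8933800-8933999 (plus strand): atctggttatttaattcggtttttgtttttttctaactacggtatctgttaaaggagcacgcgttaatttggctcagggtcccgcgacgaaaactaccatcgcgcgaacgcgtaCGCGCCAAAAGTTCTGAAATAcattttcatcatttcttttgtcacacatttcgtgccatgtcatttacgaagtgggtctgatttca
G and C made up 41.0% of the printed stretch past aldo-1, 42.5% past aldo-2 and 41.5% past enol-1, and a lower share past gpd-3, where T made up 34.5%. In the first 101 bases past the end, the U-rich hexamers were not found for gpd-3 or enol-1, TATCTT began at base 26 for aldo-1, and TATTTT began at base 4 for aldo-2, ahead of the printed part.

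**Figure D3:**
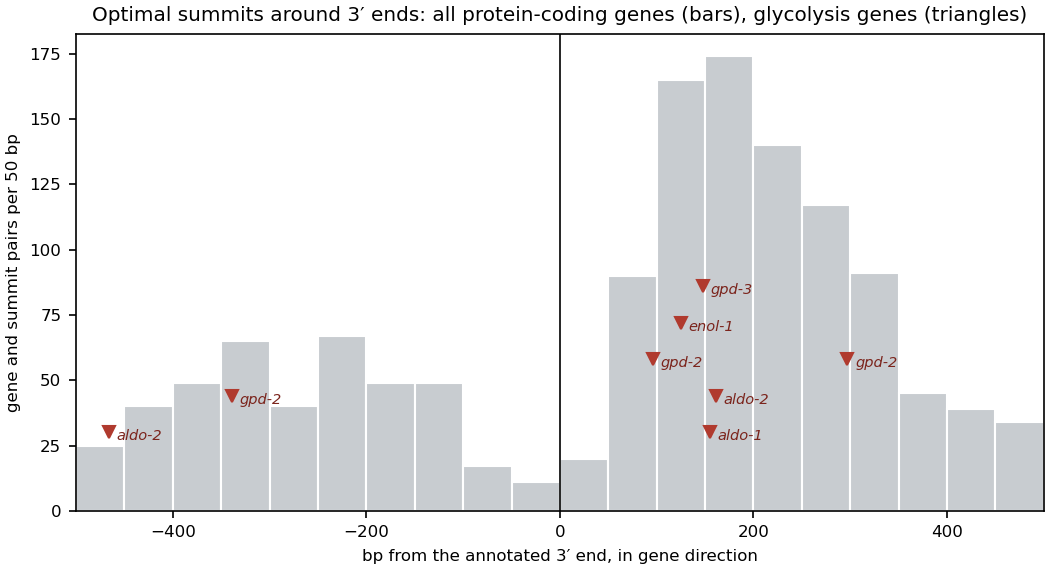
Optimal summits within 500 bp of annotated 3′ ends, with distance from the end in bp on the x axis and, for all protein-coding genes, the number of gene and summit pairs per 50 bp on the y axis. Triangles mark the glycolysis genes at their distances, and their height has no meaning. The triangles of gpd-3, aldo-1, aldo-2 and enol-1 lie from 125 to 161 bp past the end, where the 2 highest bars, of 165 and 174 pairs, also lie.

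The 2 pyruvate kinase genes had lower values than gpd-2, gpd-3, the aldolase genes and enol-1 in the pooled list, and no fixed order. The pyk-1 gene (WBGene00009126, I:9168432-9177488, plus strand) had 1 optimal summit, in an intron 283 bp inside the gene, with a pooled signal of 81.0 at rank 1451. Its signals were 52.4 at rank 1935 in replicate 1 and 18.8 at rank 3926 in replicate 2. The other 10 pooled regions of the pyk-1 window had signals from 14.5 to 43.2. The pyk-2 gene (WBGene00014001, IV:10909913-10913078, plus strand) had 8 pooled regions with signals from 15.1 to 52.7 and none in the optimal list. The strongest lay 756 bp upstream, at rank 3761, inside a coding exon of ZK596.2 and nearer to that gene's 5′ end, with 42.8 at rank 3009 in replicate 1 and no replicate 2 region within 200 bp. In replicate 2 the strongest pyk-2 region lay 218 bp inside the gene, with a signal of 26.7 at rank 1747, and the strongest pyk-1 region lay 89 bp inside that gene with 21.3 at rank 2971. The strongest region of pyk-1 was 1.54 times that of pyk-2 in the pooled list and 1.22 times in replicate 1, but 0.797 times in replicate 2, so the order of these paralogues differed between replicates.

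The isomerase gene gpi-1 (WBGene00013597, I:13576148-13581611, plus strand) had 1 optimal summit, in an intron 445 bp inside the gene and 62 bp before another annotated transcript start. Its pooled signal was 62.1 at rank 2615, with 42.6 at rank 3045 in replicate 1 and 15.8 at rank 5705 in replicate 2. A pooled region 746 bp upstream, in a coding exon of nyn-2, had a signal of 56.8 at rank 3186, just below the lowest optimal signal. The other 7 pooled regions of the window had signals from 19.1 to 48.1.

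**Figure D4:**
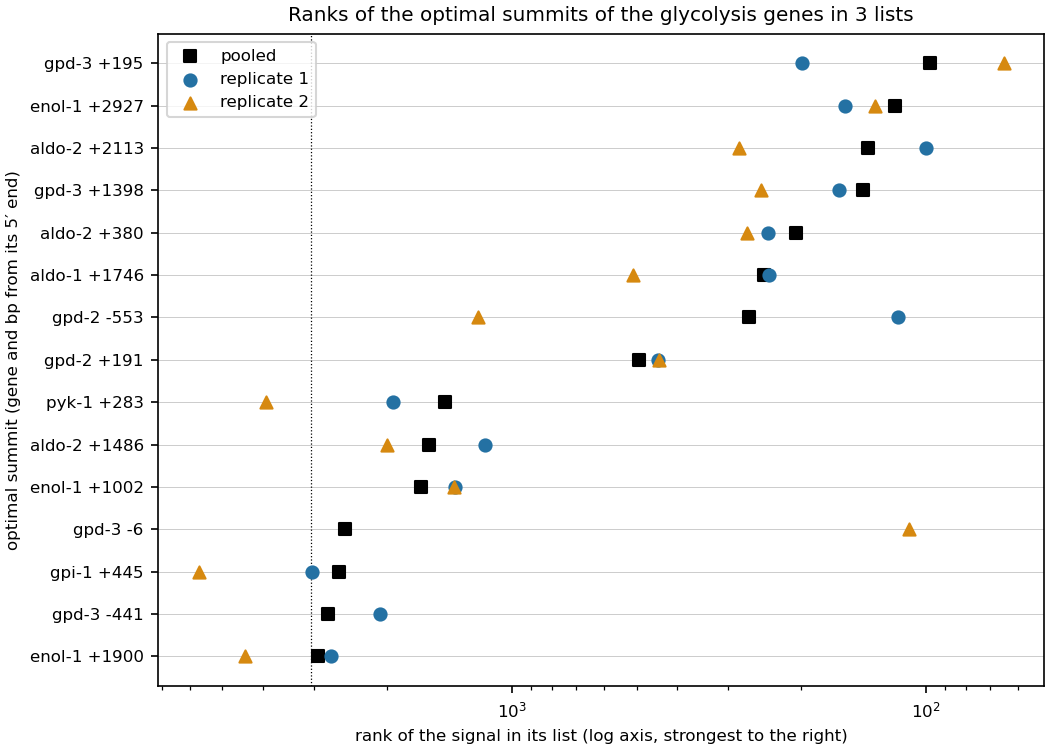
Rank of the signal in the pooled, replicate 1 and replicate 2 lists for each of the 15 optimal summits of the glycolysis genes, on a log axis with the strongest to the right. Each row is named by gene and distance from its 5′ end in bp, a missing symbol means no region within 200 bp, and the dotted line is rank 3052. The upper rows hold the summits in and past gpd-3 and past enol-1 and aldo-2, and the rows of gpd-3 at -6 and -441 bp have a symbol for only 1 replicate each.

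At the 5′ end, 500 bp or less to either side of it, 5 of the 10 genes had an optimal summit (gpd-2, gpd-3, aldo-2, pyk-1 and gpi-1), against 6.07% of protein-coding genes. Within 500 bp of the 3′ end it lay in 5 (gpd-2, gpd-3, aldo-1, aldo-2 and enol-1), against 5.81%. Both ends had one in gpd-2, gpd-3 and aldo-2, which is 3 genes against 2.16%. The same 3 summits gave gpd-2 its 3′ call and gpd-3 its 5′ call, so these counts are not independent. When a summit counted only for its nearest gene end, the 5′ count was 4, without gpd-2. The 3′ count was then also 4, without aldo-1. Only the 5′ end had an optimal summit in pyk-1 and gpi-1, against 3.91%, and only the 3′ end in aldo-1 and enol-1, against 3.65%. When the ends of any annotated transcript were used, enol-1 also had an optimal summit at a 5′ end. In aldo-1, enol-1 and gpd-2, the strongest region within 500 bp of the 3′ end exceeded that at the 5′ end in all 3 lists. For aldo-1 the 3′ value was 3.82 times the 5′ value in the pooled list, 3.05 times in replicate 1 and 2.50 times in replicate 2. For gpd-2 it was 1.94, 1.39 and 2.19 times, but the region behind these values is the one inside gpd-3, 297 bp past the gpd-2 end, and with windows of 250 bp the 5′ end of gpd-2 was the stronger one in the pooled list.

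In pyk-1 the 5′ value was 4.20 times the 3′ value in the pooled list and 4.19 times in replicate 1, and replicate 2 had no region within 500 bp of the 3′ end. The pooled region behind the 3′ value lay 357 bp past pyk-1, in a coding exon of F25H5.8 and nearer to the 3′ end of that gene. In gpd-1, gpd-3, aldo-2, pyk-2 and gpi-1 the stronger end differed between lists. For gpd-3, for example, the 5′ value was 1.19 times the 3′ value in the pooled list, 0.929 times in replicate 1 and 1.76 times in replicate 2. The gpd-4 gene had no region within 500 bp of its 5′ end in any list.

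**Figure D5:**
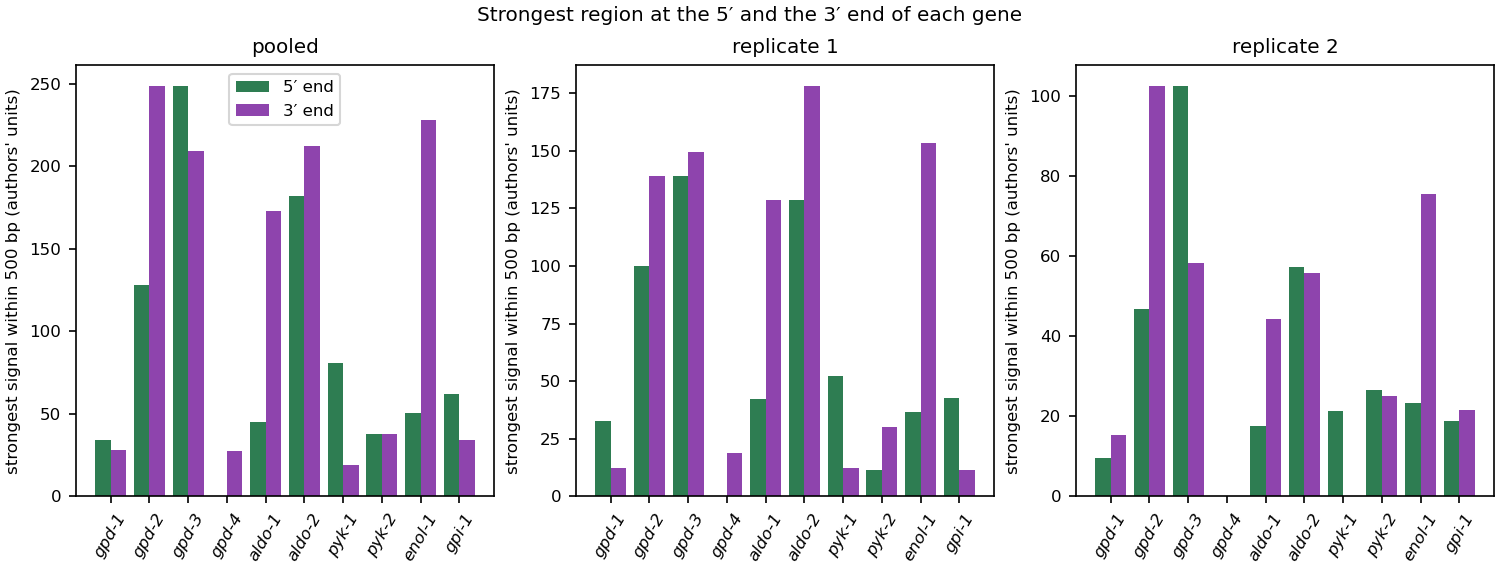
Strongest signal within 500 bp of the 5′ end and of the 3′ end of each glycolysis gene in the pooled, replicate 1 and replicate 2 lists, in the authors' units, each list on its own axis. A missing bar means no region in that window, and the 3′ bar of gpd-2 is the region inside gpd-3. The 3′ bars of aldo-1 and enol-1 are taller than their 5′ bars in all 3 panels.

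Of 9 other genes of glycolysis and lactate formation, 5 had an optimal summit in the window, hxk-1, hxk-3, tpi-1, pgk-1 and ipgm-1, beside the 11.9% of all protein-coding genes. The other 4 were hxk-2, pfk-1.1, pfk-1.2 and ldh-1. The strongest of these in the pooled list was at hxk-3, a hexokinase gene, 67 bp inside its 5′ end, with a signal of 97.7 at rank 944. It was also the strongest in replicate 1, at 72.9, but the weakest of the 5 in replicate 2, at 18.3 and rank 4190, where the windows of tpi-1, ipgm-1, pgk-1 and hxk-1 reached 47.4, 43.9, 25.8 and 23.3. The only optimal summit of hxk-1 lay 1279 bp before its 3′ end with a pooled signal of 58.7. Past the 3′ ends of tpi-1, triose-phosphate isomerase, pgk-1, phosphoglycerate kinase, and ipgm-1, phosphoglycerate mutase, the strongest summits lay 136, 195 and 367 bp beyond the end with pooled signals of 75.2, 73.1 and 73.8. The tpi-1 summit was nearer to the 5′ end of cyn-16, and the pgk-1 summit to that of coq-4. An optimal summit at the 5′ end was found for 1 of these 9 genes, beside 6.07% of all protein-coding genes, and at the 3′ end for 3, beside 5.81%.

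Gluconeogenesis, the path from pyruvate back to glucose, shares most of these enzymes and adds a few of its own. Of 5 genes of those added steps, 4 had an optimal summit in the window, beside 11.9% of all protein-coding genes, and the same 4 had one at the 5′ end, beside 6.07%. The strongest in the pooled list was at pck-2, a phosphoenolpyruvate carboxykinase gene with 9 optimal summits, with a signal of 295.8 at rank 62. That summit had a signal of 267 at rank 38 in replicate 1 but 30.2 at rank 1261 in replicate 2, and it lay nearer to the 5′ end of R11A5.6 than to an end of pck-2. The strongest replicate 2 region of the pck-2 window was another one, 277 bp inside the gene, with a signal of 90.0 at rank 84. The pck-2 window was thus the highest of these genes in each list. The strongest pooled region of the window had a signal of 185.8 at fbp-1, fructose bisphosphatase, 155.0 at pyc-1, pyruvate carboxylase, and 148.0 at pck-1. In replicate 1 these genes reached 157.5, 101.4 and 114.7, and in replicate 2 they reached 43.8, 58.0 and 72.8, so their order differed between the lists. The fifth gene, pck-3, had no region in the pooled list.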

How the data were processed

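The values are the authors' deposited narrowPeak lists in ce11: 1 permissive list per replicate, 1 on pooled replicates and 1 of optimal IDR-thresholded peaks. Per the file headers and notes deposited by the authors, the permissive lists were made from alignments and a control. Column 7 of the deposited lists holds the signal and column 9 a −log10 q value, which was not used in any comparison. Not given in the sources used here are the aligner, peak caller, IDR threshold, read length and depth per library, so the lack of a peak says only that none was called. The 4 ce10 lists were not used.

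The summit was column 2 plus column 10, written 1-based. Genes came from Ensembl release 115. A summit was matched to a replicate's nearest region within 200 bp. Coding sequences and flanks were aligned globally with Biopython 1.88. Python 3.11.15 and pandas 2.3.3 were used, and the summit assignment was tested on planted summits. With 2 replicates of 1 group no test between groups was made, and the 3 lists are given side by side. The replicates are separate biological samples per the labels. The members and lists were chosen with earlier results of these data known. Named are all members, pathway genes with an optimal summit (the others by name only) and the genes nearest a summit described.

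Alternatives were other windows, list sizes, overlap rules and transcript ends, and each replicate alone.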

Additional observations from a re-analysis of the deposited data

How the results depend on the processing

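Of 80 alternative values, 8 changed direction, 51 differed from the main value by less than the spread between the replicates (1 SD) or, for counts, by no more than 1.5 times, and 21 differed by more or had no such spread because a replicate gave no value. The count of genes with an optimal summit at the 5′ end fell from 5 to 2 (gpd-2 and gpd-3) with a window of 250 bp, and the other alternatives kept the counts within 1.5 times the main ones. From each replicate's 3052 strongest regions alone, the window count was 8, with pyk-2 added, the 5′ count 5 to 6 and the 3′ count 5 to 7. The log2 ratios of 5′ over 3′ signal from 1 replicate alone were -1.61 to -1.32 for aldo-1, -0.47 to 0.038 for aldo-2, -2.07 to -1.70 for enol-1, -0.69 to 1.43 for gpd-1, -1.13 to -0.48 for gpd-2, -0.11 to 0.82 for gpd-3, -0.20 to 1.88 for gpi-1 and -1.36 to 0.090 for pyk-2, and 2.07 for pyk-1 in replicate 1. The pooled values that these reversed were 0.27 for gpd-1, 0.25 for gpd-3, -0.22 for aldo-2, -0.01 for pyk-2 and 0.87 for gpi-1. For pyk-2 a 1000 bp window gave 0.47, and for gpd-2 a 250 bp window gave 1.02 in place of -0.96.

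Between paralogues, the log2 ratios of the strongest signal from 1 replicate alone were 0.37 to 0.47 for aldo-2 over aldo-1, 2.37 to 2.74 for gpd-2 over gpd-1, 0.00 to 0.19 for gpd-2 over gpd-3, 2.19 to 2.74 for gpd-3 over gpd-1 and -0.33 to 0.29 for pyk-1 over pyk-2 (0.62 pooled). In replicate 1 they were 0.81 for gpd-1 over gpd-4, 3.18 for gpd-2 over gpd-4 and 2.99 for gpd-3 over gpd-4. The 0.00 for gpd-2 over gpd-3, from replicate 2, compares 1 shared region with itself. The 0.19, from replicate 1, compares the mai-1 intron region with the region past gpd-3. Neither is a comparison of the 2 genes, and within 500 bp of their 5′ ends the ratio was -0.48 in replicate 1 and -1.13 in replicate 2. At the 5′ end only, the pooled ratio was -0.96 for gpd-2 over gpd-3, 1.91 for gpd-2 over gpd-1, 2.01 for aldo-2 over aldo-1 and 1.11 for pyk-1 over pyk-2, and the window from 500 bp upstream to 250 bp past the 3′ end gave -0.96 and 1.91 for the first 2. Except where the change of window moves the gpd-3 region out of the gpd-2 window, the cause was not tested. Ratios that needed a region where a list had none, such as gpd-4 in replicate 2, gave no value. No paired analysis was possible because there was 1 group. The unknown depth limits what the absence of a region can show.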
